A study of Mus musculus with 9 samples.

Results

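Liver macrophages were followed through 10 genes that mark resident Kupffer cells or macrophages at large: Marco, Clec4f, Vsig4, Cd5l, Timd4, Csf1r, Adgre1, Cd68, Cd163 and Lyz2. They were taken by gene symbol from a table of 56748 genes, and all 10 were found. The set was chosen by macrophage identity and by one measured value, the level of Marco, which was higher after indirubin than in the Control livers. Every Marco value, and every value of the 10 genes that sets Indirubin against Control, is therefore given as a description with no test.

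RNA was sequenced from livers of C57BL/6J mice in 3 groups of 3 libraries. The DSS group drank 1.8% (w/v) dextran sulfate sodium, an irritant of the colon lining, for 3 cycles of a week on and a week off, and received sterile water by mouth every day. The Indirubin group went through the same DSS cycles and received 1 g/kg indirubin, a poorly soluble plant pigment, by mouth every day. The Control label names water alone, while the series description speaks of colitis for all mice, so whether the Control mice drank DSS is uncertain. All 9 libraries carry the same genotype label. The labels hold no age, and the study's methods describe wild-type mice bought as young adults. The labels do not tie a library to an animal, so p-values measure the spread between these libraries.

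Library totals lay between 6514863 and 7944684 counts, of which 71.6% to 91.3% fell on mitochondrial genes, leaving 569044 to 2132208 counts for nuclear genes. All 10 hepatocyte markers had counts in every library, with a summed level of 12198 to 26465 CPM (counts scaled to a common library size with edgeR's TMM factors). Macrophage transcripts were thus read at low depth: 1 count was worth between 0.0819 and 0.244 CPM. Indirubin libraries 2 and 3 stood apart from the rest. Their 10 pancreatic acinar markers summed to 690 and 912 CPM, against 0 to 19.97 CPM in the 7 other libraries, and the result of each member that rests on them is given with and without them.

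Kupffer cells are the macrophages that live inside the liver sinusoids, where they take bacteria, particles, worn red cells and dying cells out of portal blood. They depend on CSF1 receptor signalling and on the transcription factor PU.1, encoded by Spi1, and carry a set of surface receptors seldom found together elsewhere. Marco is a scavenger receptor for bacteria and particles. Clec4f is a lectin used as a Kupffer cell marker in mice, Vsig4 a complement receptor that catches opsonised bacteria, Timd4 a receptor for phosphatidylserine on dying cells, and Cd5l a secreted protein of tissue macrophages. Csf1r, Adgre1 (which encodes the F4/80 antigen) and the lysosomal Cd68 are shared by most macrophages. Cd163 takes up haemoglobin bound to haptoglobin, and Lyz2 encodes lysozyme of macrophages, monocytes and neutrophils.

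The DNA upstream of 4 of these genes is shown because they followed different courses across the groups: Marco and Cd5l were higher in every DSS library than in every Control library, Vsig4 was higher in every Indirubin library, and Clec4f served as the resident cell reference. The sequences are RefSeq's, build GRCm38.p6, and run 5′ to 3′ over the 250 bases before the start of each gene. Capitals mark GAGGAA, a core of the sites that PU.1 binds, on either strand.
Marco: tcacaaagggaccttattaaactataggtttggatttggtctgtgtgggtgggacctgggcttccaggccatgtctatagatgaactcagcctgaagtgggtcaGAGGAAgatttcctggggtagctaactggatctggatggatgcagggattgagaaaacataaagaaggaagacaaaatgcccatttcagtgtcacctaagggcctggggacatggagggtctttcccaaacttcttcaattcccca
Vsig4: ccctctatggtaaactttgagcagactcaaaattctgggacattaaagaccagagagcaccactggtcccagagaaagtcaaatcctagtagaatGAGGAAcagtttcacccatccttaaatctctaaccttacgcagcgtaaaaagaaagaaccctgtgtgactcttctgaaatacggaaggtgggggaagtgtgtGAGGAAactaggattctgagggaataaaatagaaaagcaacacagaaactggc
Cd5l: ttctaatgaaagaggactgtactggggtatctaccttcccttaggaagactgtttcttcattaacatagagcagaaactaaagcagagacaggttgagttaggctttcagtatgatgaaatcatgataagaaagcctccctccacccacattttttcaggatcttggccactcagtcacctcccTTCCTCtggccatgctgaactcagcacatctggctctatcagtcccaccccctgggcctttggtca
Clec4f: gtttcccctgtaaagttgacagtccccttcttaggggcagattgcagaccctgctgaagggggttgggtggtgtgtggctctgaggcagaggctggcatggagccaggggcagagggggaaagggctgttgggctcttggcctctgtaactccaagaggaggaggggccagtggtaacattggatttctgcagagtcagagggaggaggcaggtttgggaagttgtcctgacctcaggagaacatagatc

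The Marco window lies at chr1:120505025-120505274, minus strand, and its single match begins 146 bases before the start (position -146). The Vsig4 window, chrX:96293439-96293688, minus strand, holds 2 matches, at -155 and -53. The Cd5l window, chr3:87357631-87357880, plus strand, holds 1 on the opposite strand at -66, and the Clec4f window, chr6:83656117-83656366, minus strand, holds none. Of the 8 members with a window read, 4 had GAGGAA (the fourth being Cd68), and so did 23.3% of all 32851 windows of that length. The core of the aryl hydrocarbon receptor site, GCGTG, was looked for because indirubin is a known ligand of that receptor. It was in 0 of the 8 windows and in 28.2% of all windows. The AP-1 core TGANTCA was in 1 of the 8, that of Cd68, and in 6.75% of all. Both strands were searched, no match overlapped another, and a match of letters is not a bound site.

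Marco (ENSMUSG00000026390, chromosome 1, 120402267 to 120432753, minus strand) was scarce in the Control livers, with 2.14, 2.99 and 2.92 CPM from 11, 17 and 12 counts. It stood at 9.01, 19.8 and 13.7 CPM in the DSS livers, from 76, 112 and 150 counts. In the Indirubin livers it reached 8.63, 31.1 and 72.0 CPM, from 47, 380 and 833 counts. All DSS and all Indirubin libraries were above every Control library, whereas Indirubin library 1 was below all 3 DSS libraries and the other 2 were above them. The mitochondrial share of counts was 89.5% in Indirubin library 1 and 71.6% and 77.2% in libraries 2 and 3, against 87.5% to 91.3% in Control and 85.8%, 87.7% and 72.4% in DSS. The TMM factors of these Indirubin libraries were 0.819, 1.84 and 1.51, those of DSS 1.10, 0.862 and 1.42, and those of Control 0.631 to 0.723. The part of these library properties in the Marco level was not tested. In bulk tissue, more macrophages, of the liver or of another organ, and more Marco RNA per macrophage cannot be told apart.

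The fitted log2 difference of Marco was 2.43 ± 0.50 (SE) for DSS over Control and 3.82 ± 0.68 for Indirubin over Control, folds of 5.40 and 14.2. Marco was chosen by its level in Indirubin and Control, so its SEs do not measure its certainty and no test is drawn from them. For Indirubin over DSS the difference was 1.40 ± 0.63, a fold of 2.63 whose groups overlap. Without Indirubin library 3 this difference was 0.50, and without Indirubin libraries 2 and 3, the pair with acinar transcripts, it turned to -0.71. Over Control, the same single Indirubin library gave 1.66. Between Control and DSS, all 3 libraries of each group were apart, while the higher Indirubin mean came from 2 libraries.

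**Figure D1:**
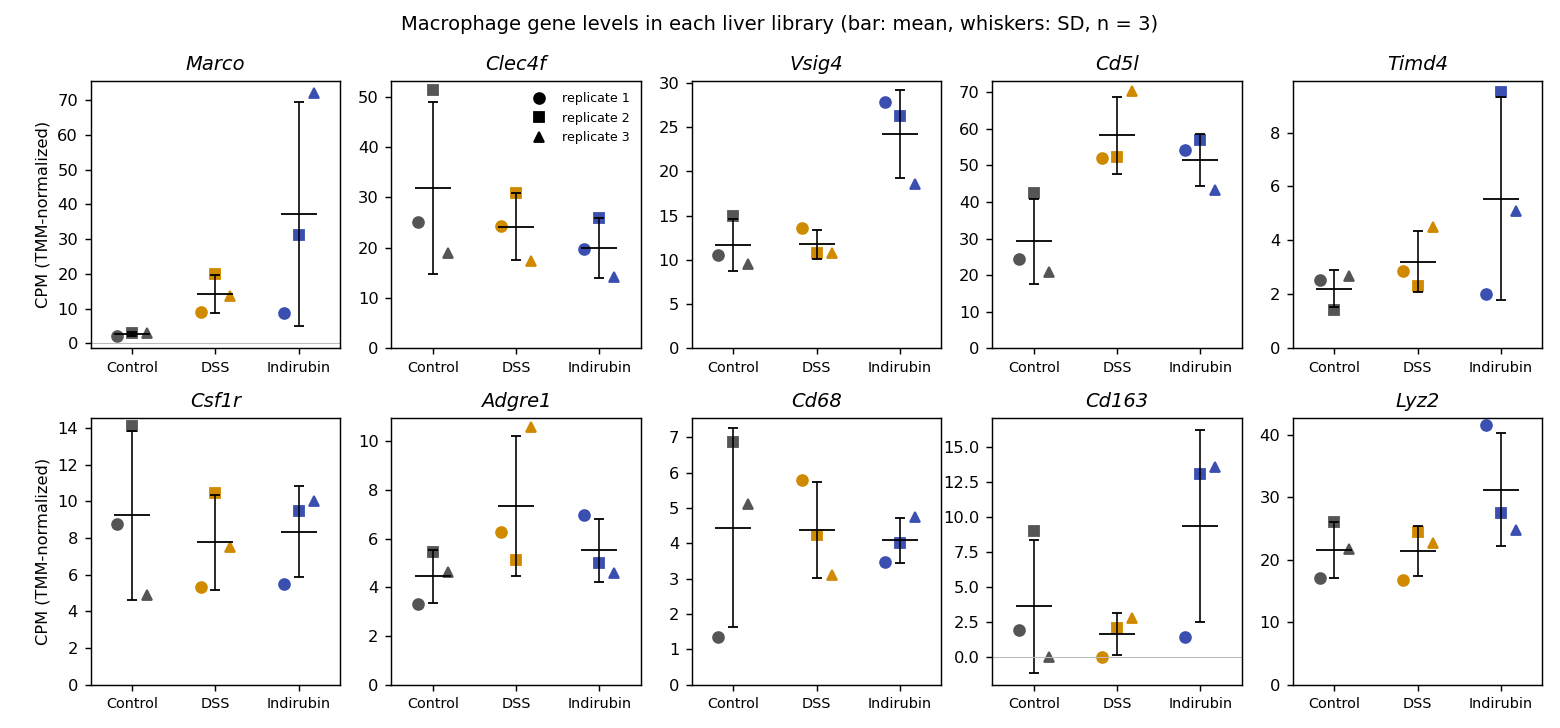
TMM-normalized CPM (y axis, a scale of its own for each gene) of the 10 genes in the 9 liver libraries, grouped as Control, DSS and Indirubin. Circles, squares and triangles are replicates 1, 2 and 3, the bar is the mean and the whiskers the SD (n = 3). Marco is at 2.14 to 2.99 CPM in Control and at 8.63 to 72.0 CPM in Indirubin, and Vsig4 is highest in the Indirubin libraries.

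Among the genes of resident Kupffer cells, Clec4f (chromosome 6, 83621524 to 83633169, minus strand) did not follow Marco. It measured 25.1, 51.3 and 19.0 CPM in Control, 24.3, 30.8 and 17.4 CPM in DSS and 19.6, 26.0 and 14.2 CPM in Indirubin. The ranges of all 3 groups overlapped. The log2 difference of Indirubin over DSS was -0.28, with a 95% interval of -1.16 to 0.61, and that of DSS over Control was -0.33, with an interval of -1.19 to 0.53. Both signs turned when libraries were scaled by size alone, and the sign of DSS over Control also turned without Control library 2, to 0.15.

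Vsig4 (chromosome X, 95290809 to 95337044, minus strand) separated the Indirubin livers from the others. Its level was 10.5, 14.97 and 9.50 CPM in Control and 13.6, 10.8 and 10.8 CPM in DSS, 2 groups that overlap. In Indirubin it was 27.9, 26.2 and 18.6 CPM, above all 6 other libraries. Indirubin library 1, in which Marco was lowest of its group, held the most Vsig4. The difference of Indirubin over DSS was 1.04 ± 0.39 (log2, SE; a fold of 2.06), with an unadjusted p of 0.0191 and an adjusted p of 0.529 in edgeR's quasi-likelihood test over 9117 genes. It thus failed the correction, and over 15 alternatives the difference ran from 0.83 to 1.32 with adjusted p from 0.285 to 1.00. Without Indirubin libraries 2 and 3 it was 1.25. DSS over Control gave 0.06 ± 0.39, whose sign turned without Control library 1 or 3 or DSS library 1.

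Cd5l (chromosome 3, 87265188 to 87278380, plus strand) stood higher in the DSS livers than in Control in every library. Control libraries held 24.5, 42.5 and 20.7 CPM, DSS libraries 51.9, 52.5 and 70.5 CPM, and Indirubin libraries 54.2, 57.0 and 43.4 CPM. No DSS library fell into the Control range. The difference of DSS over Control was 1.04 ± 0.33 (log2, SE; a fold of 2.05), with an unadjusted p of 0.00770 and an adjusted p of 0.333 in edgeR over 7482 genes, so it too failed the correction. Its 14 alternatives gave 0.80 to 1.73 with adjusted p between 0.0619 and 0.999. Indirubin over DSS was -0.18, with an interval of -0.98 to 0.62, and its sign turned under scaling by library size alone.

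Timd4 (chromosome 11, 46701627 to 46735159, plus strand) was scarce, at 2.53, 1.41 and 2.68 CPM in Control, 2.84, 2.30 and 4.48 CPM in DSS and 2.02, 9.51 and 5.10 CPM in Indirubin. Indirubin libraries 2 and 3 were the highest of all 9, and library 1 was lower than every DSS library. The difference of Indirubin over DSS was 0.79 ± 0.69 (edgeR adjusted p = 0.922). It was -0.67 without Indirubin libraries 2 and 3.

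The genes shared by most macrophages overlapped between the groups in CPM. Csf1r (chromosome 18, 61233670 to 61265221, plus strand) ranged over 4.87 to 14.1 CPM in Control, 5.33 to 10.5 CPM in DSS and 5.51 to 10.02 CPM in Indirubin. Its difference was 0.12 ± 0.48 for Indirubin over DSS, with an interval of -0.93 to 1.16, and its sign turned without DSS library 1, without Indirubin library 3 and with no filter on low counts. Hmgxb3 overlaps Csf1r on the opposite strand with 55 counts over all libraries, and whether the counting used strand is not given in the sources used here. Adgre1 (chromosome 17, 57665691 to 57790527, plus strand) ran over 3.31 to 5.46 CPM in Control, 5.14 to 10.6 CPM in DSS and 4.58 to 6.98 CPM in Indirubin. DSS over Control was 0.75 ± 0.54 for Adgre1 (edgeR adjusted p = 0.920). On the deposited FPKM every DSS library of Adgre1, at 1.84, 1.59 and 2.90, was above every Control library, at 0.963, 1.49 and 1.40. The share of all genes that did so on FPKM was not computed. Cd68 (chromosome 11, 69555039 to 69556979, minus strand) lay at 1.36 to 6.87 CPM in Control, 3.11 to 5.81 CPM in DSS and 3.49 to 4.75 CPM in Indirubin. The wide Control range of Cd68 spanned both other groups.

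Cd163 (chromosome 6, 124281615 to 124307486, plus strand) varied widely between libraries of 1 group. Its counts were 10, 51 and 0 in Control, 0, 12 and 31 in DSS and 8, 159 and 157 in Indirubin. A count of 0 allows up to 0.731 CPM in Control library 3 and up to 0.356 CPM in DSS library 1, the level of 3 counts, for counting error only. Indirubin libraries 2 and 3 were at 13.03 and 13.6 CPM and library 1 at 1.47 CPM, within the DSS range. The difference of Indirubin over DSS was 2.498 ± 1.03 (log2, SE), with an unadjusted p of 0.0323 and an adjusted p of 0.604 in edgeR. Without Indirubin libraries 2 and 3 it was -0.17.

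Lyz2 (chromosome 10, 117113236 to 117118226, minus strand) measured 17.1, 26.1 and 21.7 CPM in Control and 16.8, 24.5 and 22.8 CPM in DSS. In Indirubin it measured 41.5, 27.5 and 24.7 CPM. The Indirubin libraries cleared the DSS libraries by a narrow gap on this scale and overlapped them on the deposited FPKM, where the lowest Indirubin library had 17.7 and the highest DSS library 18.6. The difference was 0.55 ± 0.39 (edgeR adjusted p = 0.870), and without Indirubin libraries 2 and 3 it was 0.96. Lyz1, a near-identical gene with which reads can be shared, had 0 counts in 8 libraries and 1.64 CPM in Indirubin library 3.

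All 10 genes passed the filter on low counts in every comparison. Across the 9 genes other than Marco, the tested comparisons called 0 at an adjusted p under 0.05, and the DESeq2 test called 0 as well. For Indirubin over DSS, edgeR called 0 of all 9117 genes (0.00%), 700 had an unadjusted p under 0.05, and DESeq2 called 80. Of the 9 genes, 2 (Vsig4 and Cd163) had an unadjusted p under 0.05, where 7.68% of all genes did. Likewise 2 (Vsig4 and Lyz2) had Indirubin libraries all above DSS in CPM, against 10.5% of all genes. With 5 fitted higher and 4 lower, where 56.8% of all genes were higher, their median log2 difference was 0.12, beside 0.15 over all genes. Without Indirubin libraries 2 and 3, 2 of all 10 members (Vsig4 and Lyz2) were fitted higher and 8, Marco among them, lower, where 49.6% of 9059 genes were higher.

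For DSS over Control, edgeR called 53 of 7482 genes (0.708%). Of the 9 genes, 1 (Cd5l) had an unadjusted p under 0.05, where 7.52% of all genes did, and the same gene alone had DSS libraries all above Control in CPM, where 7.10% did. They split into 6 higher and 3 lower, where 50.6% of all genes were higher, with a median of 0.03 beside 0.01 over all genes. The comparison of Indirubin with Control, which the choice of genes used, had 2 of these 9 (Vsig4 and Cd5l) above Control in every library in CPM, a median of 0.55 beside 0.13, and a background of 12.2%. The comparisons share libraries: DSS enters both tested ones, and Indirubin and Control are those on which Marco was picked.

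**Figure D2:**
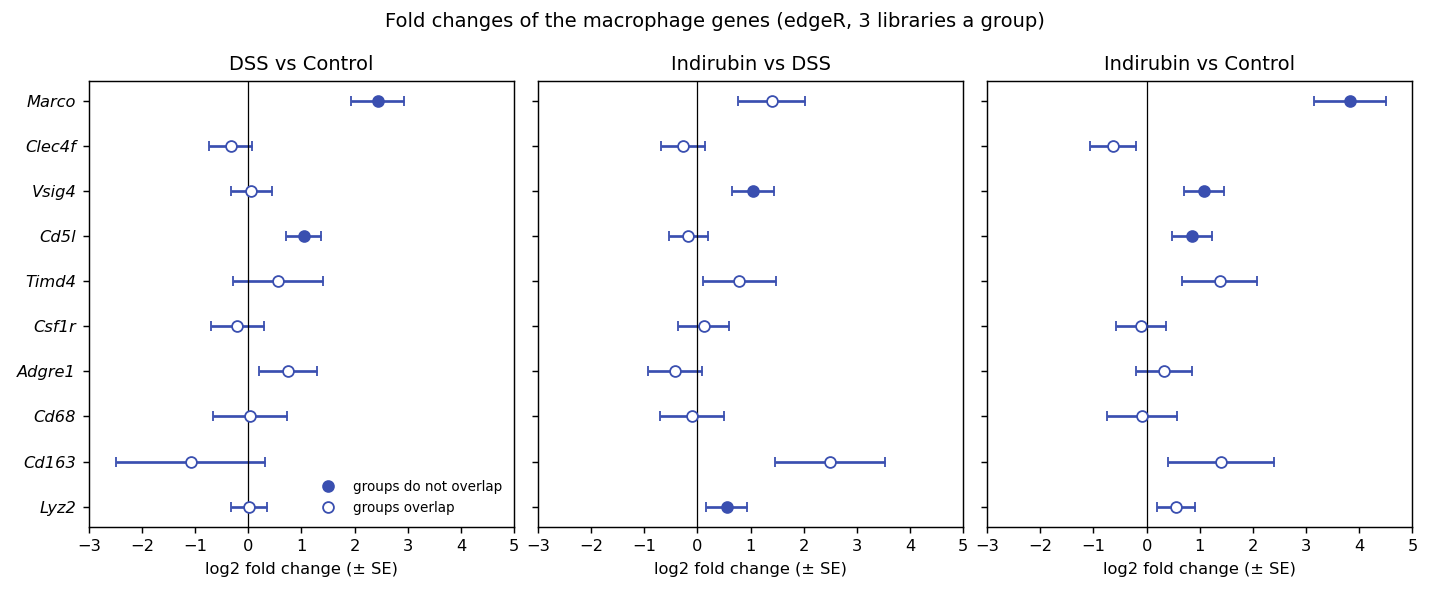
Log2 fold change (x axis) with its SE for the 10 genes in DSS vs Control, Indirubin vs DSS and Indirubin vs Control, each from an edgeR fit of 6 libraries. Filled points mark genes whose groups do not overlap in CPM. The SE bars of Marco, and of all genes in Indirubin vs Control, describe the fit and are not read as a test. Marco has the largest DSS vs Control value of the 10, 2.43, while Clec4f lies below 0 in all 3 panels and turns above 0 in each when libraries are scaled by size alone.

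Ratios between members within a library do not depend on scaling between libraries. Per 100 counts of Clec4f, Marco had 8.53, 5.84 and 15.4 counts in Control, 37.1, 64.4 and 78.9 in DSS, and 43.9, 120 and 508 in Indirubin. Relative to this Kupffer cell gene, Marco was higher in every DSS and every Indirubin library than in Control. Vsig4 had 41.9, 29.2 and 50.0 counts per 100 of Clec4f in Control, 56.1, 35.1 and 62.1 in DSS, and 142, 101 and 131 in Indirubin. The Indirubin ratios of Vsig4 lay above all others. Per 100 counts of Csf1r they overlapped with DSS, at 507, 276 and 185 in Indirubin and 256, 103 and 144 in DSS.

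Cd5l had 97.7, 82.8 and 109 counts per 100 of Clec4f in Control and 214, 170 and 406 in DSS. In Indirubin it had 276, 220 and 306, within the DSS range. DSS lay above Control for Cd5l whether Clec4f or Csf1r was the reference. Per count of Clec4f, Timd4, Csf1r, Adgre1, Cd68, Cd163 and Lyz2 overlapped between the groups in every comparison. Per count of Csf1r, Clec4f, Vsig4, Timd4, Adgre1, Cd68, Cd163 and Lyz2 did so. The share of all genes whose ratios separate the groups was not computed. The 9 other members were set against each reference, and no p is given, since an exact permutation test of 3 against 3 libraries cannot go below 0.1.

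**Figure D3:**
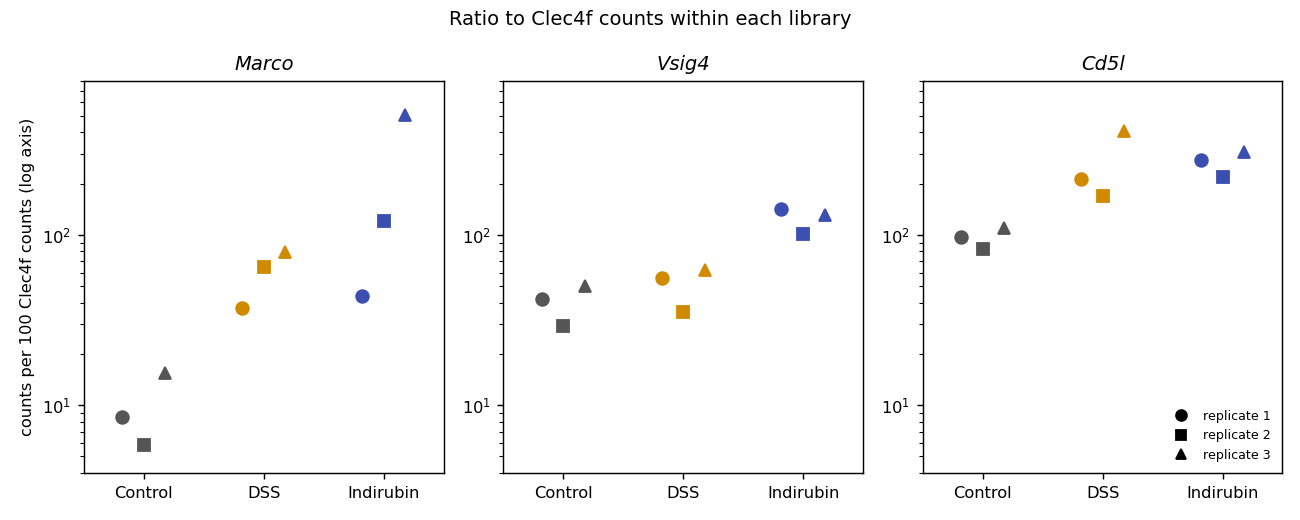
Counts of Marco, Vsig4 and Cd5l per 100 counts of Clec4f in the same library (y axis, log scale), by group, with replicates 1, 2 and 3 as circles, squares and triangles. Marco and Cd5l are higher in every DSS library than in every Control library, and Vsig4 is at 101 to 142 in Indirubin against 35.1 to 62.1 in DSS.

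Levels of different genes were compared only on the deposited FPKM, which divides by gene length. Over the 9 libraries the order was Cd5l at 21.4 ± 7.04 FPKM (SD), Lyz2 at 17.8 ± 5.51, Vsig4 at 10.1 ± 4.49, Clec4f at 9.60 ± 3.89, Marco at 8.85 ± 10.9, Cd68 at 3.22 ± 1.17, Adgre1 at 1.67 ± 0.560, Timd4 at 1.58 ± 1.05, Csf1r at 1.37 ± 0.460 and Cd163 at 0.829 ± 0.927. Of neighbours in this order, Lyz2 exceeded Vsig4 in all 9 libraries and Cd68 exceeded Adgre1 in 8. The other neighbours swapped places in 2 to 5 libraries and differed by less than their spread. The order was not the same in every group. Lyz2 was above Cd5l in Control, at 15.3 and 13.2 FPKM, though below it in Control library 2, at 17.5 and 18.4. Without Control library 3 both had a mean of 14.9 FPKM. Clec4f was above Vsig4 in Control, at 11.8 and 7.29 FPKM, and in DSS, at 9.34 and 7.47 FPKM. In DSS library 3 Clec4f was the lower, at 6.23 and 6.44 FPKM. Marco was number 7 of 10 in Control, with 1.30 ± 0.228 FPKM, number 5 in DSS, with 7.02 ± 2.99, and number 3 in Indirubin, with 18.2 ± 15.7. The last place rests on Indirubin library 3, without which Marco had a mean of 9.69 FPKM and was number 4. Without Indirubin library 1 it was number 1, with 25.2 FPKM. In DSS it was number 4 without DSS library 1. In Control it was number 6 without Control library 2 and number 8 without Control library 1 or 3. Within Indirubin libraries 1, 2 and 3 it was number 5, 4 and 1.

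Of 12 tested genes in a list of 13 further Kupffer cell genes, 9 were fitted higher and 3 lower in Indirubin than in DSS, 3 had an unadjusted p under 0.05 and 0 an adjusted one, and the median was 0.54. Over all genes tested, 56.8% were fitted higher, 7.68% had an unadjusted p under 0.05 and the median was 0.15, the background for this and the next lists. Without Indirubin libraries 2 and 3 the Kupffer cell list had 7 higher and 5 lower at a median of 0.13, beside 49.6% higher and a median of -0.01 over 9059 genes. The list summed to 139 to 166 CPM in Control, 124 to 170 CPM in DSS, and 184, 256 and 203 CPM in Indirubin. Every Indirubin sum was above those of the other groups, and sums were not tested. Slc40a1 alone held 66.1 CPM of the sum in Indirubin library 1. Hmox1, which breaks down haem, measured 7.47, 6.91 and 9.23 CPM in DSS and 13.2, 33.9 and 34.4 CPM in Indirubin. Its Control level was 13.4, 14.4 and 12.2 CPM, so that Indirubin library 1 lay within the Control range. C1qb, a subunit of complement C1q, measured 13.2, 6.38 and 15.8 CPM in DSS and 25.9, 42.1 and 30.2 CPM in Indirubin. In Control it measured 14.6, 22.4 and 26.8 CPM, and Indirubin library 1 lay within that range too. The fitted difference was 1.79 for Hmox1 (edgeR adjusted p = 0.433) and 1.47 for C1qb (adjusted p = 0.436).

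In the list of general macrophage genes, 13 of 13 tested were fitted higher in Indirubin than in DSS, 3 of them with an unadjusted p under 0.05 and 0 with an adjusted one, at a median of 0.66, beside the 56.8% higher and 7.68% under 0.05 of all genes. This count rests on Indirubin libraries 2 and 3, without which 5 were fitted higher and 8 lower, at a median of -0.02. The list summed to 82.3, 169 and 135 CPM in Indirubin, and library 1 lay within the 70.9 to 87.7 CPM of DSS. Cd14, the co-receptor for bacterial lipopolysaccharide, had 0, 0 and 31 counts in DSS and 3, 89 and 228 counts in Indirubin, and Indirubin libraries 2 and 3 held nearly all of them. Uptake receptors and their bridging proteins gave 9 higher and 3 lower of 12 tested, 3 with an unadjusted p under 0.05 and 0 adjusted, at a median of 0.83, beside the same shares. Without Indirubin libraries 2 and 3 this became 6 higher and 6 lower at a median of 0.31, and the summed levels of 83.9, 108 and 149 CPM in Indirubin overlapped those of 72.7, 50.7 and 112 CPM in DSS. Axl, a receptor for dying cells, measured 1.78, 0.532 and 3.20 CPM in DSS and 6.98, 14.0 and 11.7 CPM in Indirubin. Its Control level was 8.17, 4.93 and 3.65 CPM, a range that held Indirubin library 1 and lay above every DSS library. Cd36, a receptor for oxidised lipids, measured 3.08, 1.06 and 4.48 CPM in DSS and 7.90, 8.77 and 14.4 CPM in Indirubin, and 6.81, 2.82 and 1.46 CPM in Control. Axl and Cd36 both separated DSS from Indirubin in CPM, at edgeR adjusted p = 0.433 for Axl and adjusted p = 0.473 for Cd36.

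The CSF1 axis and the macrophage transcription factors were mixed, with 5 higher and 7 lower of 12 tested at a median of -0.14. Spi1, which encodes PU.1, measured 9.84, 3.90 and 7.68 CPM in DSS and 5.88, 26.0 and 16.8 CPM in Indirubin, so that Indirubin library 1 lay within the DSS range. Its difference of 1.18 ± 0.56 (edgeR adjusted p = 0.672) was -0.28 without Indirubin libraries 2 and 3. Cebpb, a factor of inflammatory activation, had a difference of 1.45 ± 0.62 (edgeR adjusted p = 0.618), and of 1.25 without that pair. Spic, the factor of iron-recycling macrophages, had -0.58 ± 0.73. Lipid-associated macrophage genes gave 4 higher and 1 lower of 5 tested, the lower being Spp1, osteopontin, at -1.76 ± 0.77 (edgeR adjusted p = 0.628), and without Indirubin libraries 2 and 3 this list had 2 higher and 3 lower. Inflammasome genes gave 5 higher and 2 lower of 7 tested, 0 of them with an unadjusted p under 0.05. Nlrp3, the inflammasome sensor, had at most 7 counts in any library, so its level was not readable at this depth.

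In DSS against Control, further Kupffer cell genes gave 5 higher and 7 lower of 12, with a median of -0.27, and uptake receptors 5 higher and 6 lower of 11, with a median of -0.33. General macrophage genes gave 7 higher and 4 lower of 11, with a median of 0.19, and inflammasome genes 3 higher and 1 lower of 4, where 50.6% of all genes were higher. Lipid-associated macrophage genes gave 3 higher and 1 lower of 4, with a median of 0.83, and 3 of these 4 had every DSS library above every Control library, where 7.10% of all genes did. The other 6 genes of that list did not pass the filter on low counts, and of these Trem2, Gpnmb, Mmp12 and Ctsk were at 0 in all Control libraries and in 2 of 3 DSS libraries. Stab1, a scavenger receptor shared with sinusoidal endothelium, was at 11.1, 20.3 and 7.06 CPM in Control and 5.10, 1.77 and 5.58 CPM in DSS, a difference of -1.56 ± 0.55 (edgeR adjusted p = 0.412). Fcgr3, an activating receptor for immunoglobulin G, was at 1.36, 1.41 and 3.17 CPM in Control and 14.8, 8.33 and 5.58 CPM in DSS. Fabp5, a fatty acid carrier of lipid-associated macrophages, was at 3.31, 0.705 and 3.41 CPM in Control and 11.4, 12.6 and 7.77 CPM in DSS. Neither passed the correction, with edgeR adjusted p = 0.194 for Fcgr3 and adjusted p = 0.246 for Fabp5. Of the 9 members other than Marco, 1 (Cd5l) had every DSS library above every Control library in CPM, where 7.10% of all genes did. Marco did too, but it was chosen with these Control libraries. Adgre1 did so on FPKM only, and the share of all genes on that scale was not computed.

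Summed levels of markers of other cells also varied between the groups. In edgeR, 0 of their tested genes had an adjusted p under 0.05 in Indirubin over DSS or DSS over Control. Of 12 neutrophil markers, 2 to 3 had counts in the Control libraries, 2 to 6 in DSS and 8 to 11 in Indirubin. Their sum was 1.17 to 3.65 CPM in Control, 11.5 to 19.8 CPM in DSS, and 30.3, 254 and 93.8 CPM in Indirubin. S100a8 and S100a9, subunits of calprotectin that monocytes share with neutrophils, made up most of it, with 119 and 106 CPM in Indirubin library 2. Cxcr2 was at 0 in all 9 libraries, and Ly6g, a defining surface marker, was at 0 in all but Indirubin library 2, with 6 counts. The 12 recruited monocyte genes summed to 18.7 to 35.1 CPM in Control, 13.7 to 15.8 CPM in DSS, and 21.5, 63.8 and 47.3 CPM in Indirubin. Only 3 of these 12 could be tested, and their defining receptor Ccr2 had 0 counts in 5 libraries and at most 20. Plac8 differed by 1.504 ± 0.45 (edgeR adjusted p = 0.436) between Indirubin and DSS, and by 0.43 without Indirubin libraries 2 and 3. It measured 14.7, 42.4 and 35.9 CPM in Indirubin, most of the summed level of the 12 genes there. Its Control range, 11.6 to 20.9 CPM, held Indirubin library 1. The part of these cells in the Marco and Lyz2 levels was not tested.

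Pancreatic acinar markers were at 10.3 CPM in Indirubin library 1, close to the 8.46 to 19.97 CPM of Control, and at 0 to 3.08 CPM in DSS. Marco, Timd4 and Cd163 were high in the 2 libraries with acinar transcripts, and the part of that tissue in their levels was not tested. The 8 genes listed for macrophages of other organs summed to 7.16, 29.3 and 51.6 CPM in Indirubin. Their sum was 5.85 to 18.9 CPM in Control and 13.04 to 28.6 CPM in DSS. Gata6 of that list had 0, 57 and 68 counts in Indirubin and at most 10 elsewhere. Car4 had 16, 13 and 15 counts in Indirubin and 0 in Control and DSS (edgeR adjusted p = 0.478 over DSS). The part of such macrophages in the Marco and Timd4 levels was not tested. Sinusoidal endothelial markers summed to 40.4 to 79.6 CPM in Control, 32.4 to 51.3 CPM in DSS and 63.9 to 76.5 CPM in Indirubin, so that the Indirubin sum lay above DSS in all 3 libraries, as the level of Vsig4 did, and its part in that level was not tested. Stellate cell markers summed to 208 to 332 CPM in Control, 110 to 145 CPM in DSS and 151 to 301 CPM in Indirubin. The 10 members together summed to 91.1 to 175 CPM in Control, 136 to 164 CPM in DSS and 171 to 211 CPM in Indirubin, and without Marco to 88.2 to 172, 127 to 150 and 139 to 178 CPM. Without Marco the 3 groups overlapped.

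**Figure D4:**
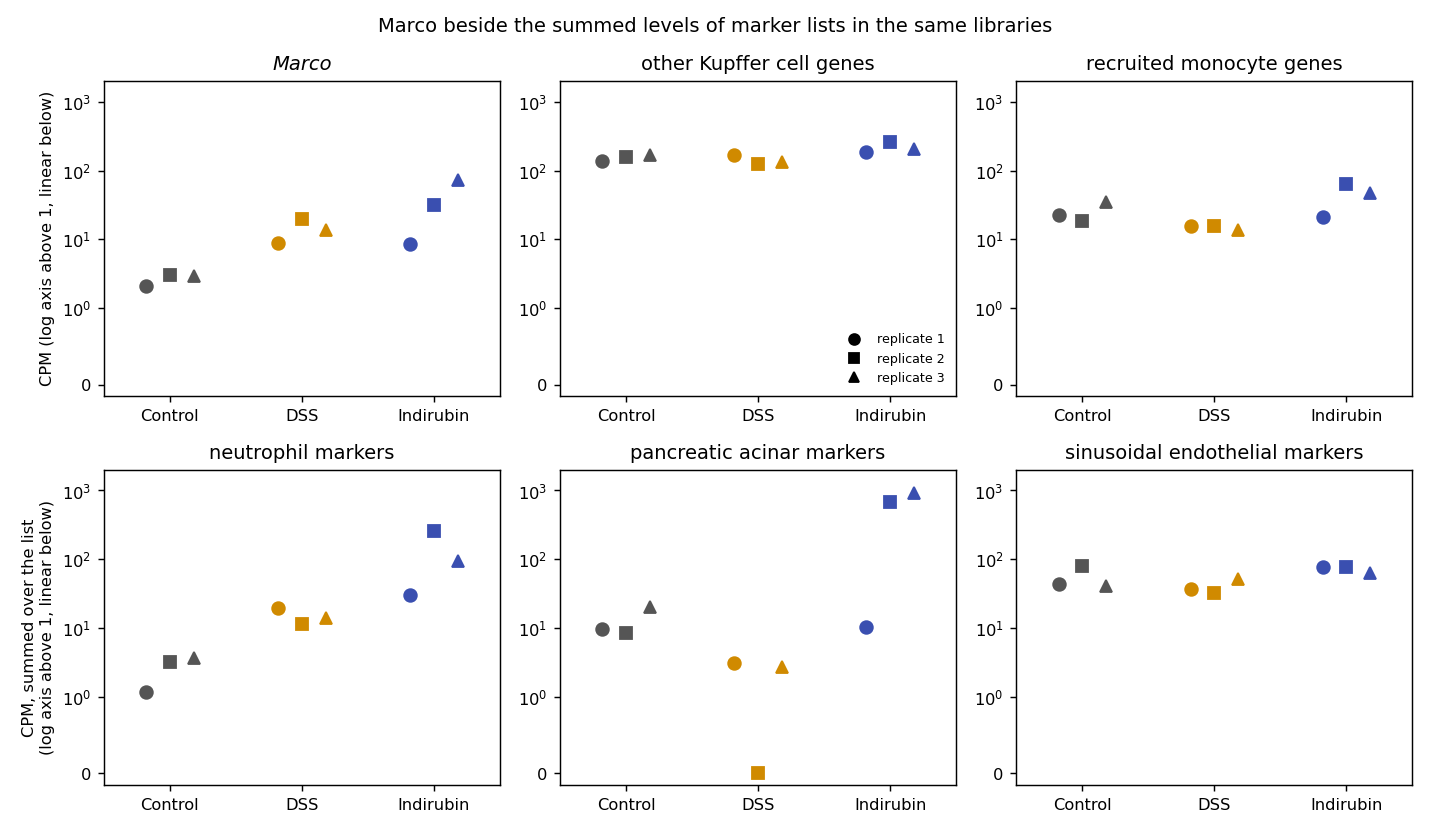
CPM of Marco and the summed CPM of 5 marker lists (y axis, log scale above 1 and linear below) in each library by group, with replicates 1, 2 and 3 as circles, squares and triangles. Neutrophil markers sit at 1.17 to 3.65 CPM in Control and at 30.3 to 254 CPM in Indirubin, and acinar markers reach 690 and 912 CPM in Indirubin libraries 2 and 3.

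Of 9712 genes ranked by the Pearson r of their log2 CPM with that of Marco across the 9 libraries, the closest were Chd9, a chromatin remodeller, at 0.945, Clic1 at 0.941, the predicted gene Gm14221 at 0.932, Eif3f, a subunit of a translation initiation factor, at 0.929, and Saa3, an acute-phase serum amyloid, at 0.928. These libraries differ in depth and mitochondrial share, which all genes have in common. Saa3 measured 0.973, 1.59 and 0 CPM in Control, 3.44, 8.86 and 30.6 CPM in DSS, and 2.57, 50.1 and 254 CPM in Indirubin. Like Marco, it was lowest of its group in Indirubin library 1 and highest in library 3, which its choice by r makes likely. None of the other 9 members came near: Timd4 was number 475 with r = 0.69, Cd5l 829 with 0.61, Cd163 number 1470 with 0.50, Vsig4 1733 with 0.46 and Clec4f 8256 with -0.44. The remaining 4 lay between numbers 3152 and 3799.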

How the data were processed

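Liver RNA of 9 libraries was extracted with the RNeasy Plus Micro Kit, and 400 ng was made into libraries sequenced on DNBSEQ. The authors deposited 1 table with raw counts per gene, not normalized, and FPKM values. The submitters' processing notes name GRCm39. Aligner, counter and annotation are not given in the sources used here. The FPKM deposited by the authors equal count over length and a constant per library, within 1% for 100% of genes with at least 20 counts. Columns of group means, log2 fold changes and p-values deposited by the authors hold their own comparisons and were not used, nor were lists without values per library.

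Counts were tested with edgeR 4.0.16 (R 4.3.3) by the quasi-likelihood test, with TMM scaling, filterByExpr (minimum count 10, minimum total 15), 6 libraries a comparison, and Benjamini-Hochberg adjustment over all genes tested. All 10 members passed the filter in each comparison. The fit was checked on simulated data. The 95% intervals of differences reflect the spread between libraries, and floors of 3 counts cover counting error only. Correlations used a prior count of 2. Alternatives were another scaling, DESeq2 1.42.0, other filters, all 9 libraries, a replicate block and each library left out. Same-numbered libraries did not deviate together (r from -0.022 to 0.028), so numbers were not treated as pairs. Named genes outside the 10 members follow a rule: per list, up to 2 each way with the smallest p in each tested comparison, and the 5 genes most like Marco. Nlrp3, Lyz1, Ly6g, Ccr2, Cxcr2, Trem2, Gpnmb, Mmp12, Ctsk and Gata6 were added after their values were seen. Members and lists were chosen with earlier results of these data known. Figures were drawn with Python 3.11.15 and matplotlib 3.10.9.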

Additional observations from a re-analysis of the deposited data

How the results depend on the processing

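Of the 9 members tested, 0 passed an adjusted p of 0.05 in Indirubin against DSS or DSS against Control under the alternatives run, while the count over all genes moved widely. For Indirubin against DSS, DSS against Control and Indirubin against Control, edgeR called 0, 53 and 19 genes. Scaling by library size alone gave 2, 19 and 266 and moved the median log2 difference of all genes from 0.15, 0.01 and 0.13 to 0.43, 0.70 and 1.11. Under that scaling the calls split into 14 higher and 5 lower for DSS against Control, where TMM gave 16 and 37, and into 249 and 17 for Indirubin against Control, where TMM gave 5 and 14. DESeq2 gave 80, 143 and 316, no filter 156, 125 and 379, at least 10 counts in every library 2, 84 and 72, and all 9 libraries in one fit 4, 11 and 56. The replicate block gave 3, 30 and 49, and since the numbers do not pair the libraries it is not read further. Leaving out 1 library gave 0 to 134, 12 to 64 and 1 to 465, the highest of the first and last without Indirubin library 1, and the cause was not tested.

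Some signs of the members' log2 differences turned, and every such case in the tested comparisons is given here. Under library size alone, Indirubin against DSS became 0.13 for Clec4f, 0.085 for Cd5l and 0.27 for Cd68, DSS against Control 0.22 for Clec4f and 0.39 for Csf1r, and Indirubin against Control 0.35 for Clec4f. With no filter, Csf1r was -0.0067 in Indirubin against DSS. With all 9 libraries, DSS against Control was -0.022 for Cd68 and -0.020 for Lyz2. Leaving out 1 library turned Csf1r (-0.22 to 0.30) and Cd68 (-0.31 to 0.041) in Indirubin against DSS, and Clec4f (-0.66 to 0.15), Vsig4 (-0.11 to 0.24), Csf1r (-0.56 to 0.19), Cd68 (-0.44 to 0.45), Cd163 (-1.71 to 0.75) and Lyz2 (-0.16 to 0.15) in DSS against Control. Leaving out Indirubin libraries 2 and 3, chosen after seeing the data, gave -0.71 for Marco, -0.67 for Timd4, -0.48 for Csf1r and -0.17 for Cd163 against DSS, and -0.14 for Timd4 against Control, with 1 library assumed to vary like DSS or Control. With 10 counts required in every library, Cd163 had no value in any comparison, and Timd4 and Cd68 had none in the 2 comparisons with Control. In Indirubin against Control, given without a test, signs also turned across the alternatives for Csf1r (-0.75 to 0.93), Cd68 (-0.55 to 0.93), Adgre1 (-0.008 to 1.24) and Cd163 (-1.30 to 3.18). The low nuclear depth limits the scarce members, with 11 to 17 counts of Marco and 8 to 13 of Timd4 in Control.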
